A study of Homo sapiens with 6 samples.

Results

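The genes described here are 9 enzymes and partners that place, copy, read and remove DNA methylation, taken from the 53492 genes of the tables by gene name. They are Dnmt1, Uhrf1 and Hells (copying of methylation at replication), Dnmt3a and Dnmt3b (new methylation), Tet1, Tet2 and Tet3 (oxidation of methylcytosine) and Mbd2 (a reader). Each name stood on a single gene identifier, and each was above 0 in all 6 libraries. Polyadenylated RNA was sequenced in 3 libraries labelled GFP-CCNB1IP1 and 3 labelled GFP. The first group was transfected with the vector pCS2-eGFP-CCNB1IP1, which joins green fluorescent protein to CCNB1IP1 (also called HEI10, an E3 ubiquitin ligase named for binding cyclin B1). The second received pCS2-eGFP-N, and all 6 libraries carry the label of the human neuroblastoma line SH-SY5Y. The labels used here give neither the time after transfection nor the share of cells transfected, and do not say that replicates were separate cultures, so the variation behind each p-value may be only technical.

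The tables carry mouse gene names and identifiers, so all values below are those of mouse genes in libraries labelled as a human line. The mouse copy of the introduced gene, Ccnb1ip1, was at 0.191 FPKM or less in every library, and the introduced sequence itself was not analysed here. FPKM, the fragments of a gene scaled by transcript length and library size, is meant to let levels be compared between genes. If the cells were human as labelled, their reads could match mouse genes unequally. Levels compared between genes, and values of 0, would then be distorted, and this was not tested. Depth is not given in the tables. An estimate from the deposited confidence bounds puts the GFP-CCNB1IP1 libraries at 0.743 to 1.04 and the GFP libraries at 0.95 to 1.06 of the GFP mean, with GFP-CCNB1IP1 replicate 2 the shallowest. All 11 markers of noradrenergic neuroblastoma were detected, with summed levels of 1229.0 to 1332.5 FPKM in the GFP-CCNB1IP1 libraries and 1406.8 to 1524.2 FPKM in the GFP libraries. Of these, Th and Dbh averaged only 2.47 and 0.666 FPKM over the 6 libraries, so the sums rest on other markers. The summed levels of 9 mesenchymal markers were 6.39 to 7.72 FPKM in the GFP-CCNB1IP1 libraries and 6.06 to 7.67 FPKM in the GFP libraries, with Col3a1 and Lum at 0 in every library. Pdgfrb and Pdgfra, the highest of these, averaged 4.53 and 1.89 FPKM. The sums of 6 Schwann cell markers were 4.11 to 4.50 in the GFP-CCNB1IP1 libraries and 3.24 to 3.89 FPKM in the GFP libraries, with Erbb3 averaging 2.90 FPKM. For 4 epithelial markers the sums were 0.1 to 0.199 in the GFP-CCNB1IP1 libraries and 0.210 to 0.376 FPKM in the GFP libraries, with Epcam and Krt18 at 0.

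In mammalian DNA most methylation lies on the cytosine of CpG dinucleotides. DNMT1 copies it onto the new strand after replication, guided by UHRF1, which recognises CpG sites methylated on the old strand only, and helped by the chromatin remodeller HELLS. DNMT3A and DNMT3B methylate unmodified sites, TET enzymes oxidise methylcytosine using oxoglutarate, and the oxidised base is diluted by replication or cut out by TDG. Methylated promoters are read by proteins such as MBD2, which brings in the nucleosome remodelling and deacetylase complex NuRD. In dividing cells Dnmt1, Uhrf1 and Hells are expressed with the genes of S phase, while Dnmt3b and Tet1 are best known from pluripotent cells.

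Uhrf1, Mbd2 and Dnmt1 had the highest levels of the 9, and Dnmt3b and Tet1 the lowest. Over the 6 libraries Uhrf1 averaged 28.7 FPKM, Mbd2 28.5 and Dnmt1 27.4, followed by Tet3 at 17.8, Tet2 at 12.0, Hells at 11.4, Dnmt3a at 7.13, Dnmt3b at 2.04 and Tet1 at 0.742 FPKM. The ranges of Uhrf1, Mbd2 and Dnmt1 overlapped, and Uhrf1 exceeded Mbd2 in only 3 of the 6 libraries. Tet2 exceeded Hells in 5 libraries, with overlapping ranges. The ranges of the other neighbours in this order did not overlap. Among the 13231 genes with a mean of at least 1 FPKM, Uhrf1 stood above 78.7% and Dnmt3b above 11.0%; Tet1 lay under that limit. The deposited confidence bounds were within 4.91 to 6.24% of the value for Dnmt1 and 27.3 to 34.3% for Dnmt3b, against 69.5 to 133% for Tet1, so single values of Tet1 are very imprecise.

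**Figure D1:**
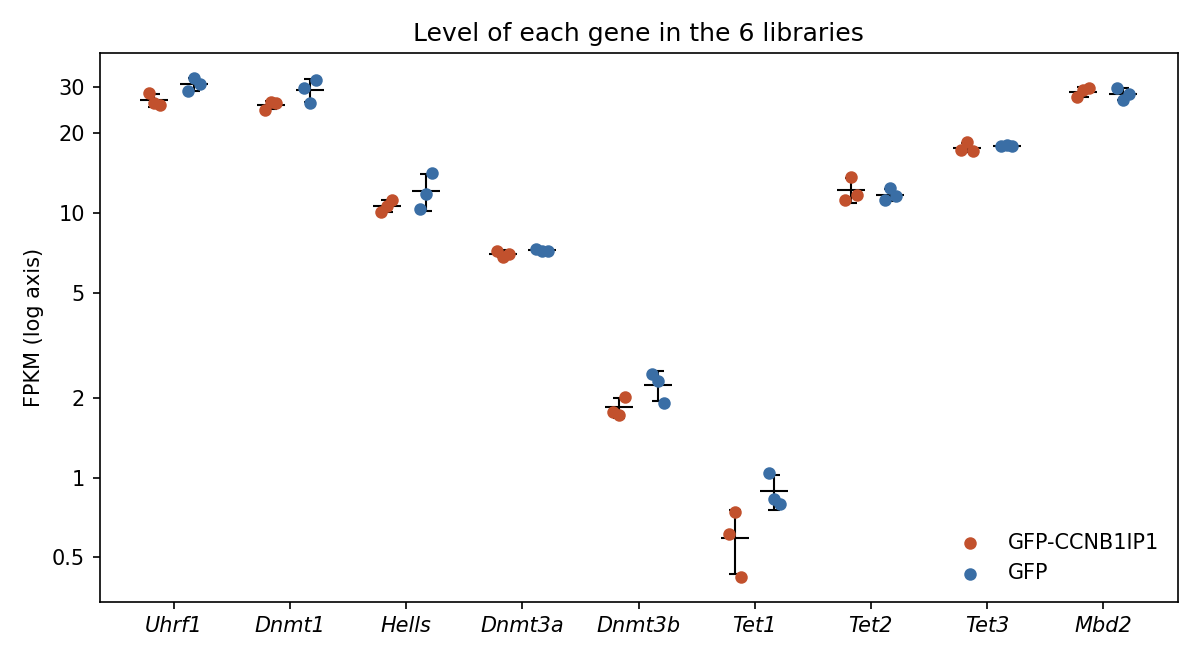
FPKM (log axis) of the 9 genes, with a point for each of the 3 GFP-CCNB1IP1 libraries (left of each pair) and the 3 GFP libraries (right), and a horizontal bar and error bar for the mean and SD. Uhrf1, Dnmt1 and Mbd2 sit between 24.6 and 32.4 FPKM, while Tet1 lies between 0.422 and 1.04 FPKM.

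The main question was whether any of these genes differed between the groups. Uhrf1, Dnmt1 and Hells had lower means in the GFP-CCNB1IP1 libraries by a similar small amount, Tet2, Tet3, Dnmt3a and Mbd2 were nearly level, and the low genes Dnmt3b and Tet1 had lower means. None of the 8 genes that passed the filter (a mean of at least 1 FPKM) was called, at an adjusted p under 0.05 in limma over all 13231 genes on log2(FPKM + 1). In that test 0.00756% of all genes were called, a single gene. At an unadjusted p under 0.05, 1 of the 8 was lower and 0 were higher, which is 12.5% lower against 5.77% of all genes tested. The gene was Uhrf1; without GFP-CCNB1IP1 replicate 3 there was none, without GFP replicate 1 Hells joined it, and without GFP replicate 2 Dnmt1 took its place. The median log2 fold change of the 8 was -0.102, beside 0.0037 for all genes tested. That median was -0.049 without GFP replicate 3, -0.039 for the 7 genes with a mean of at least 5 FPKM and -0.053 with a pseudocount of 5.

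Uhrf1, the ubiquitin ligase that marks newly replicated sites for DNMT1, had the smallest p of the 9. It had 28.4, 26.1 and 25.6 FPKM in GFP-CCNB1IP1 replicates 1 to 3, and 29.0, 32.4 and 30.7 FPKM in GFP replicates 1 to 3. Every GFP-CCNB1IP1 library was below every GFP library, as for 8.90% of all genes tested; 17.6% did not overlap in one direction or the other, and 8.70% were higher in this way. The means were 26.7 ± 1.51 and 30.7 ± 1.66 FPKM in those groups (SD, n = 3 each), a ratio of 0.870. The log2 fold change was -0.195 with a 95% interval of -0.344 to -0.046 (limma, unadjusted p = 0.0169, adjusted p = 0.332). Uhrf1 ranked 676 by p among the 13231 genes, and it did not pass. Its gene (ENSMUSG00000001228.15) lies on chromosome 17, 56610321 to 56630486, in the coordinates of the tables, whose genome build is not given in the sources used here.

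Dnmt1, the maintenance methyltransferase, had 24.6, 26.2 and 26.1 FPKM in the GFP-CCNB1IP1 libraries, against 29.7, 26.0 and 31.7 FPKM in the GFP libraries. The groups overlapped through GFP replicate 2 alone, at 26.0 FPKM. The log2 fold change was -0.174 (95% interval -0.353 to 0.006; limma, unadjusted p = 0.0560, adjusted p = 0.453). Without GFP replicate 2 it was -0.250 (limma, unadjusted p = 0.00568, adjusted p = 0.246), and without GFP replicate 3 it was -0.112 (unadjusted p = 0.190, adjusted p = 0.748). Leaving out any of the other 4 libraries gave -0.190 to -0.144, with unadjusted p-values of 0.0773 to 0.152. That library held the lowest GFP value of Dnmt1 and the highest of Uhrf1. The ratio of Uhrf1 to Dnmt1 was accordingly 1.24 in GFP replicate 2, against 0.979 and 0.970 in GFP replicates 1 and 3, and it was 1.16, 0.996 and 0.980 in the GFP-CCNB1IP1 libraries. Dnmt1 (ENSMUSG00000004099.17) lies on chromosome 9, 20818505 to 20871184.

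Hells, a remodelling ATPase of the SNF2 family needed for methylation of heterochromatin, had a lower mean in the GFP-CCNB1IP1 libraries and did not pass. It had 10.1, 10.6 and 11.2 FPKM in the GFP-CCNB1IP1 libraries and 10.4, 11.8 and 14.2 FPKM in the GFP libraries. The groups overlapped, and the GFP mean of 12.1 ± 1.89 was raised by replicate 3. The log2 fold change of -0.164 (limma, adjusted p = 0.606) became -0.056 without GFP replicate 3 and -0.261 without GFP replicate 1 (unadjusted p = 0.0310). Hells (ENSMUSG00000025001.12) is on chromosome 19, 38919359 to 38959495.

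The de novo enzymes stood apart from each other in level. Dnmt3a had 7.22, 6.82 and 7.03 FPKM in the GFP-CCNB1IP1 libraries and 7.33, 7.18 and 7.22 FPKM in the GFP libraries. These values overlapped and spread little, and the 95% interval of the fold was 0.874 to 1.08 on the FPKM + 1 scale (limma, adjusted p = 0.862). Dnmt3b had 1.78, 1.73 and 2.02 FPKM in the GFP-CCNB1IP1 libraries and 2.47, 2.32 and 1.92 FPKM in the GFP libraries. Its groups overlapped through GFP replicate 3 (log2 fold change -0.185, limma, adjusted p = 0.589). Dnmt3a exceeded Dnmt3b by 3.48 to 4.06 times in the GFP-CCNB1IP1 libraries and 2.96 to 3.75 times in the GFP libraries. Dnmt3c, a rodent duplicate of Dnmt3b known from the male germ line, was at 0.0905 FPKM or less everywhere; how reads of this pair were divided is uncertain. Dnmt3l, the catalytically inactive cofactor of both enzymes, was at 0.254 to 0.987 FPKM in the GFP-CCNB1IP1 libraries and 0.180 to 0.300 FPKM in the GFP libraries. The antisense genes Dnmt3aos and Dnmt3bos reached at most 0.049 FPKM, which matters because the strand of reads was not stated.

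Summed over Dnmt1, Dnmt3a and Dnmt3b, methyltransferase levels were 33.6, 34.8 and 35.2 FPKM in the GFP-CCNB1IP1 libraries and 39.5, 35.5 and 40.8 FPKM in the GFP libraries. Dnmt1 made up 73.2 to 75.4% of that sum in the GFP-CCNB1IP1 libraries and 73.2 to 77.6% in the GFP libraries. The composition of the methyltransferases therefore overlapped between the groups. No test is given for sums over these genes, since they were chosen with earlier results of these data known.

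Tet3 and Tet2, the forms typical of differentiated cells, made up most of the summed TET level, and Tet1 1.44 to 2.26% of it in the GFP-CCNB1IP1 libraries and 2.62 to 3.47% in the GFP libraries. Tet3 had 17.3, 18.5 and 17.2 FPKM in the GFP-CCNB1IP1 libraries and 17.9, 18.1 and 17.9 FPKM in the GFP libraries (log2 fold change -0.023, limma, adjusted p = 0.910). Its 95% interval spans folds of 0.899 to 1.08. Tet2 had 11.2, 13.7 and 11.7 FPKM in the GFP-CCNB1IP1 libraries and 11.2, 12.4 and 11.6 FPKM in the GFP libraries (log2 fold change 0.047, limma, adjusted p = 0.872). The shallowest library, GFP-CCNB1IP1 replicate 2, held the highest Tet2 value, and without it the fold change was -0.032. Tet3 accounted for 56.3 to 59.4% of summed TET levels in the GFP-CCNB1IP1 libraries and 57.9 to 59.3% in the GFP libraries.

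Tet1, a TET enzyme with a CpG-binding CXXC domain in its longer form, was close to the limit of measurement. It had 0.615, 0.743 and 0.422 FPKM in the GFP-CCNB1IP1 libraries, against 1.04, 0.834 and 0.794 FPKM in the GFP libraries. The groups did not overlap, and the ratio of means was 0.667. How often groups do not overlap was counted only for genes that passed the filter, so no share for genes at this level stands beside it. Tet1 entered only a fit without the filter, on the 26841 genes detected in at least 1 library, where its log2 fold change was -0.249 (95% interval -0.509 to 0.011; limma, unadjusted p = 0.0572, adjusted p = 0.633). The deposited bounds of the single libraries are wider than this difference.

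Mbd2, which binds methylated CpG sites as a subunit of NuRD, had 27.4, 29.1 and 29.8 FPKM in the GFP-CCNB1IP1 libraries and 29.6, 26.7 and 28.2 FPKM in the GFP libraries. The groups overlapped, with a log2 fold change of 0.033 (95% interval -0.108 to 0.173; limma, adjusted p = 0.875). Without GFP replicate 2 it was -0.004.

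**Figure D2:**
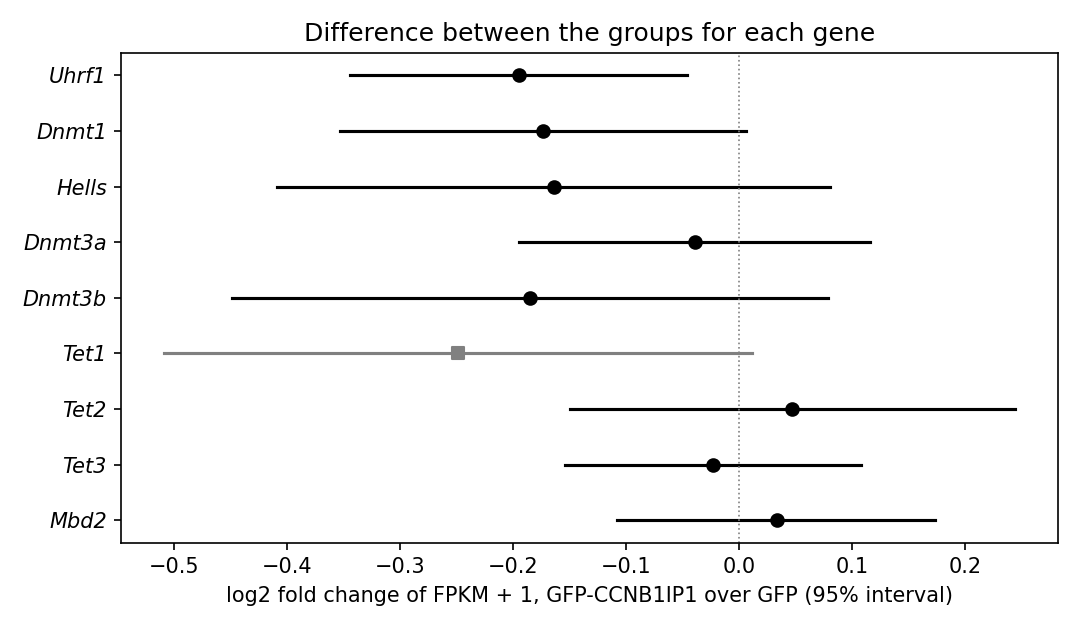
Log2 fold change of FPKM + 1, GFP-CCNB1IP1 over GFP, with its 95% interval from limma for the 9 genes; Tet1 (grey square) comes from the fit without a filter on low values. The interval of Uhrf1, -0.344 to -0.046, is the only one of the 9 that leaves out 0, and its adjusted p is 0.332.

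Genes of dividing cells had lower means in the GFP-CCNB1IP1 libraries, as Uhrf1, Dnmt1 and Hells did, but none of them was called. Of 21 listed genes 19 were measured, the other 2 were not analysed here, and all 19 had a negative log2 fold change (18 without GFP replicate 1 or 2), as did 48.6% of all genes tested. Their median was -0.291, 11 were lower at an unadjusted p under 0.05 (57.9%, against 5.77% of all genes) and 0 passed in limma after adjustment (smallest adjusted p = 0.176). The groups did not overlap for 11 of the 19 (57.9%, against 8.90% of all genes lower in this way) and overlapped for 8. Tk1, the thymidine kinase of DNA precursor salvage, had 37.7 ± 2.23 FPKM in the GFP-CCNB1IP1 libraries and 52.2 ± 2.38 FPKM in the GFP libraries (SD, n = 3 each). Mki67, the gene of the Ki-67 antigen, had 20.7 ± 1.31 and 28.4 ± 0.641 FPKM in those groups, and Mcm5, a helicase subunit, 15.3 ± 0.962 and 20.1 ± 0.277 FPKM. This direction was known when the list was written, so it is no independent support. The part of these genes in the values of Uhrf1, Dnmt1 and Hells was not tested, and in bulk RNA fewer cells of a kind and less RNA per cell cannot be told apart.

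Within the GFP group, 13 of the 19 dividing-cell genes were above the GFP mean in replicate 1, and 13 were below it in replicate 3. In GFP replicate 2, where Uhrf1 was highest and Dnmt1 lowest of the 3, 10 of the 19 were above the GFP mean and 9 below it on the log2(FPKM + 1) scale. The deviations in that library ran from -0.419 for Top2a, a topoisomerase, to 0.340 for Mcm4, a helicase subunit. Genes of DNA synthesis lay on both sides, with Rrm2 at 0.209 and Tyms at -0.354. Cdc6, Gins1, Mcm6, Mcm7, Lig1, Mcm2, Fen1 and Mki67 were also above, from 0.263 down to 0.006. Rrm1, Tk1, Mcm3 and Mcm5 were below, from -0.163 to -0.017, with Tk1 at -0.075. The cyclin genes Ccnb1 and Ccna2 and the kinase gene Cdk1 were below, at -0.213, -0.145 and -0.151. Whether this split follows the phase of the cell cycle was not tested. The genes and their grouping were chosen after their values were seen.

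**Figure D3:**
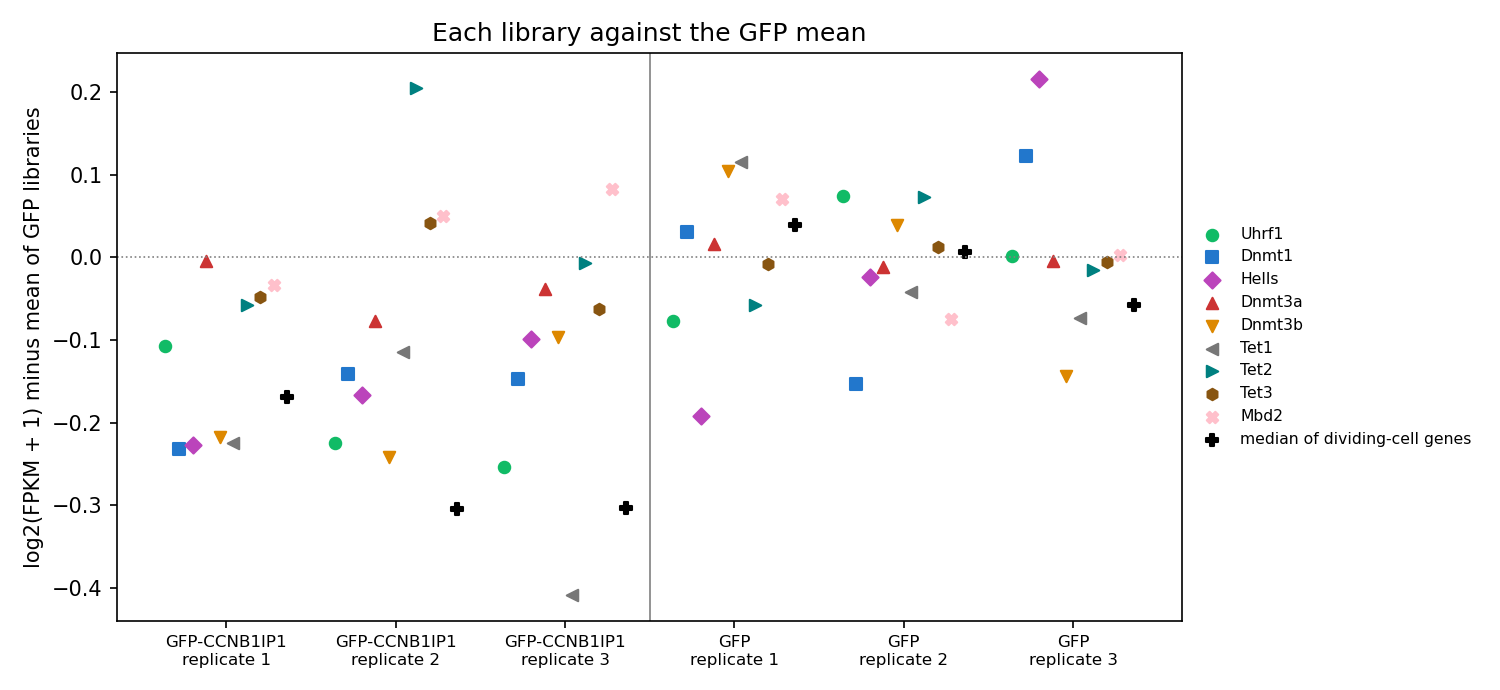
Deviation of each library from the mean of the GFP libraries, in log2(FPKM + 1), for the 9 genes and for the median of 19 dividing-cell genes; the GFP libraries are centred on 0 by construction. The 3 GFP-CCNB1IP1 libraries lie below 0 for 6 of the 9 genes, while Tet2, Tet3 and Mbd2 have values on both sides. Among the 6, Dnmt3a lies close to 0, at -0.004, -0.077 and -0.038, and Tet1 is imprecise. How often all 3 libraries lie below 0 was not counted over all genes, so no share stands beside this count. The dividing-cell medians are -0.169, -0.304 and -0.303 in GFP-CCNB1IP1 replicates 1 to 3.

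The other genes of the pathway were read from lists of 61 genes, of which 58 passed the filter on low values. None was called in limma in either direction, and the smallest adjusted p was 0.196. At an unadjusted p under 0.05, 4 were higher (6.90%, against 5.59% of all genes) and 6 were lower (10.3%, against 5.77%). Without overlap between the groups, 5 were higher (8.62%, against 8.70% of all genes) and 9 were lower (15.5%, against 8.90%). Negative fold changes made up 67.2% of the 58 (58.6% without GFP-CCNB1IP1 replicate 3), against 48.6% of all genes tested. The median of the 58 was -0.036, beside 0.0037 for all genes tested. The same 48.6% stands beside the counts of negative fold changes by list below.

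Among 5 partners of maintenance methylation 4 had negative fold changes. Pcna, the sliding clamp that tethers DNMT1 to replication forks, had 68.4 ± 4.47 FPKM in the GFP-CCNB1IP1 libraries and 76.7 ± 7.21 FPKM in the GFP libraries. Cdca7, the zinc finger partner of HELLS, had 9.80 ± 0.901 and 11.0 ± 0.408 FPKM in those groups. Uhrf2, the relative of Uhrf1, was close to it in level, at 24.7 ± 2.08 in the GFP-CCNB1IP1 libraries and 26.0 ± 2.05 FPKM in the GFP libraries. All 3 overlapped between the groups. The tRNA methyltransferase gene Trdmt1, a relative of Dnmt1, averaged 3.83 FPKM in both groups.

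Of 9 other genes with methyl-CpG-binding or related domains 8 had negative fold changes, with a median of -0.067 (-0.042 without GFP-CCNB1IP1 replicate 1). Only 1 of the 9 was lower without overlap (11.1%, against 8.90% of all genes tested). Mbd6, whose product carries an MBD domain, had 23.5, 25.8 and 22.6 FPKM in the GFP-CCNB1IP1 libraries and 28.5, 26.1 and 31.0 FPKM in the GFP libraries, without overlap (limma, adjusted p = 0.326). Mbd5 and Mbd1 overlapped between the groups, at means of 9.87 and 10.2 FPKM in the GFP-CCNB1IP1 libraries and 10.9 and 10.8 FPKM in the GFP libraries; Mbd5 overlaps the more abundant Orc4, so reads of that pair may be mixed.

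The 12 NuRD subunits, partners of Mbd2, went both ways, with 4 positive and 8 negative fold changes. Negative ones made up 66.7%, against 48.6% of all genes tested. Without overlap between the groups, 3 were lower (25.0%, against 8.90% of all genes) and 1 was higher (8.33%, against 8.70%). Chd3, a remodelling ATPase of the complex, had 27.3, 24.8 and 24.1 FPKM in the GFP-CCNB1IP1 libraries, against 29.7, 30.6 and 31.6 FPKM in the GFP libraries. Its groups did not overlap, and its log2 fold change was -0.263 (limma, adjusted p = 0.246). The alternative ATPase Chd4 had 74.4 ± 2.19 and 81.8 ± 2.21 FPKM in those groups, also without overlap (limma, adjusted p = 0.352). Mta3, a scaffold subunit, had 18.3 ± 1.46 FPKM in the GFP-CCNB1IP1 libraries and 16.1 ± 0.882 FPKM in the GFP libraries, higher without overlap (adjusted p = 0.431).

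On the demethylation side the values went both ways. Of 11 genes listed for excision of oxidised methylcytosine that passed the filter, 5 had positive and 6 negative fold changes, with a median of -0.02. Gadd45a, a damage-inducible gene whose product has been linked to demethylation together with TDG, had 60.1, 54.7 and 54.6 FPKM in the GFP-CCNB1IP1 libraries and 43.8, 48.2 and 44.8 FPKM in the GFP libraries. Its relative Gadd45g had 8.98, 9.72 and 8.52 FPKM in the GFP-CCNB1IP1 libraries, against 11.1, 12.5 and 11.7 FPKM in the GFP libraries. Neither pair of groups overlapped, with log2 fold changes of 0.303 (limma, adjusted p = 0.196) and -0.342 (adjusted p = 0.229). They were the only genes of the 11 without overlap, 9.09% in each direction. Of all genes tested, 8.70% were higher and 8.90% lower in this way. Xrcc1, a scaffold of base excision repair, overlapped, at 19.0 ± 1.49 FPKM in the GFP-CCNB1IP1 libraries and 21.0 ± 1.64 FPKM in the GFP libraries. Cxxc4, whose product binds TET2 and has been linked to its breakdown, had 8.19, 9.64 and 8.43 FPKM in the GFP-CCNB1IP1 libraries and 6.89, 5.88 and 7.00 FPKM in the GFP libraries. It had the farthest positive fold change of the 58 pathway genes, 0.362 on the log2 scale (limma, adjusted p = 0.270). Tet2 RNA was near level, and TET2 protein was not measured in these libraries, so an effect on it was not tested. Ogt, the sugar transferase that binds TET proteins, had 49.0 ± 0.572 FPKM in the GFP-CCNB1IP1 libraries and 53.2 ± 4.68 FPKM in the GFP libraries, and Cxxc5 had 32.4 ± 2.10 and 33.3 ± 0.683 FPKM.

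Of 8 genes of histone H3K9 methylation and KRAB silencing, which act beside DNA methylation in silent chromatin, 6 had negative fold changes, with a median of -0.081. Without GFP-CCNB1IP1 replicate 1 these were 4 of 8 and -0.045, without GFP replicate 3 they were 5 and -0.038, and with quantile normalization 5 were negative. For the 7 with a mean of at least 5 FPKM the median was -0.128. Suv39h1 had 11.7 ± 0.554 FPKM in the GFP-CCNB1IP1 libraries and 13.6 ± 0.382 FPKM in the GFP libraries, Ehmt1 20.8 ± 0.222 and 23.8 ± 2.16, and Setdb1 15.1 ± 0.329 and 16.6 ± 1.22. None of these groups overlapped, and none passed (limma, adjusted p = 0.321, 0.400 and 0.518). Of the 8 genes, 3 were lower without overlap (37.5%, against 8.90% of all genes tested). Setdb1 overlaps the highly expressed gene Cers2, so its reads may not be separable. In the supply of the methyl donor and of oxoglutarate, Mat2b, a regulatory subunit of methionine adenosyltransferase, had 23.5 ± 0.569 FPKM in the GFP-CCNB1IP1 libraries and 20.5 ± 1.03 FPKM in the GFP libraries (limma, adjusted p = 0.317). Idh1, which makes oxoglutarate, had 9.07 ± 1.11 FPKM in the GFP-CCNB1IP1 libraries and 7.82 ± 0.673 FPKM in the GFP libraries, with overlap.

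**Figure D4:**
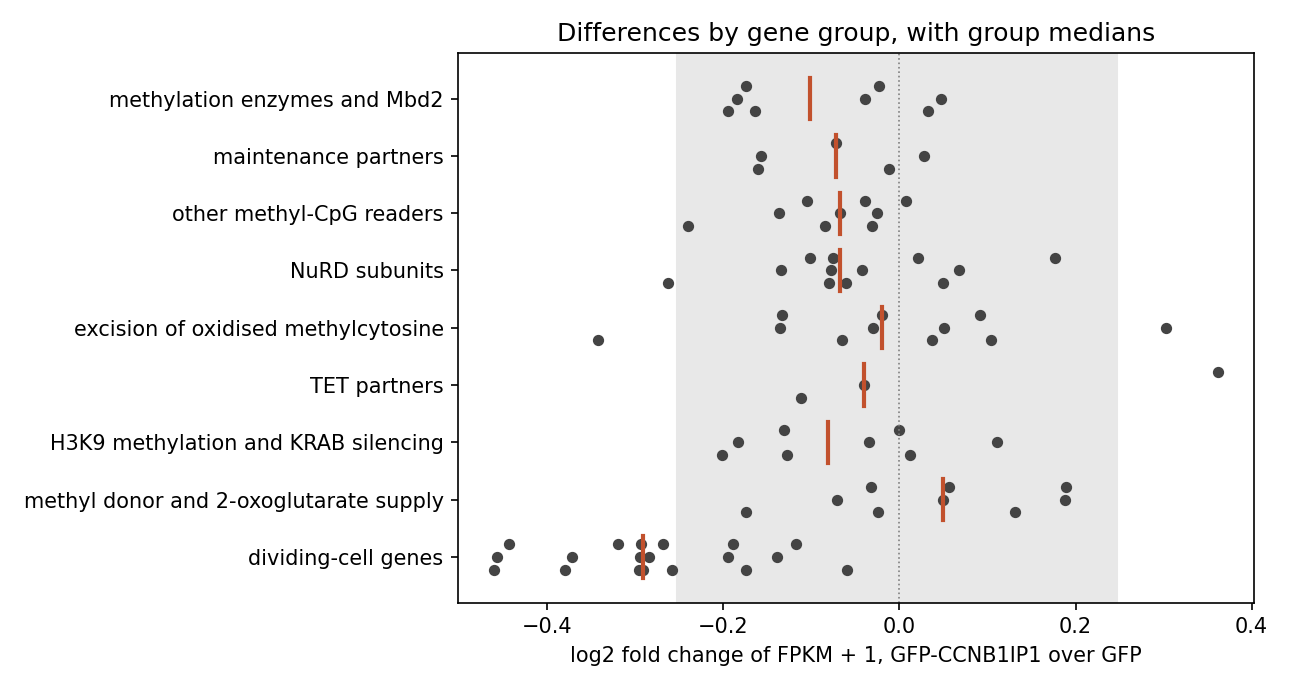
Log2 fold change of FPKM + 1, GFP-CCNB1IP1 over GFP, of each gene that passed the filter, by gene group, with the group median as a red bar; the grey band spans the 5th to 95th percentile of all genes tested, -0.253 to 0.247. The 8 methylation genes lie inside this band of single genes, and the group medians run from -0.291 for the dividing-cell genes to 0.049 for the methyl donor and oxoglutarate supply.

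Germline genes whose promoters are kept silent by DNA methylation in somatic tissue were given as a related readout. Of 19 such genes, 7 were at 0 in every library and 17 stayed under 1 FPKM in all. Asz1, a germ cell gene of the piRNA pathway, was the clear exception, with 53.7, 48.7 and 48.3 FPKM in the GFP-CCNB1IP1 libraries and 47.4, 44.5 and 52.4 FPKM in the GFP libraries. These values overlapped (log2 fold change 0.063, limma, adjusted p = 0.789). Sycp1, a component of the synaptonemal complex of meiosis, had 3.86, 2.05 and 2.74 FPKM in the GFP-CCNB1IP1 libraries and 3.66, 2.69 and 2.75 FPKM in the GFP libraries, and its fold change of -0.073 was 0.089 without GFP-CCNB1IP1 replicate 2 and 0.036 without GFP replicate 1. Taf7l, a testis form of a transcription factor subunit, was next, at 0.480 to 0.861 FPKM over all libraries. Methylation itself was not measured in these libraries.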

How the data were processed

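RNA sequencing libraries were made from polyadenylated RNA with random priming, per the labels' protocols. The submitters' processing notes name HISAT2 and Cufflinks and no versions; genome build and annotation release: not given in the sources used here. The deposited values are FPKM per gene and library with confidence bounds, per the file headers, and replicates were not pooled. Rows of the same identifier were summed (53537 rows, 53492 genes). Genes with a mean of at least 1 FPKM were tested on log2(FPKM + 1) in R 4.3.3 by limma 3.58.1 (trended variance, no block) with Benjamini-Hochberg adjustment over 13231 genes. Fold changes on this scale understate those of low genes. Table starts, taken as counting from 0, are printed from 1. An exact permutation test of 3 against 3 cannot go below a p of 0.1, so none was used. The test was run on simulated data with independent noise and changes larger than those of the 9 genes, so its power for differences this small was not checked. Relative depth was estimated from 2245 genes with 5 to 50 implied fragments in every library, with 2 standard errors between a value and its upper bound. The members and lists were chosen with earlier results of these data known. All 9 members are given; of each other pathway list and of the dividing-cell genes the 3 with the smallest p were named, and of the germline list the 3 with the highest mean. A gene that this rule takes is not reported here. Alternatives changed the pseudocount, filter, scaling, block, variance model and libraries. No sequence is printed.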

Additional observations from a re-analysis of the deposited data

How the results depend on the processing

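No gene among the 9 or the 58 other pathway genes passed an adjusted p of 0.05 under any of the 16 alternatives run in limma; Tet1 had a value in 2 fits, those with no filter and with TPM (log2 fold change -0.366). With all libraries kept, each of the 37 genes with a fold change kept its direction wherever it could be fitted, and Uhrf1 lay between -0.210 and -0.172. Over all genes, the count of calls was 0 when the pseudocount was 5, the filter was dropped, the replicate number was a block or the trend was dropped, and 0 to 4 with a library left out (0 without GFP replicate 2 or 3, 4 without GFP replicate 1, 2 without GFP-CCNB1IP1 replicate 2). The number of the 9 genes at an unadjusted p under 0.05 was 0 to 2 with a library left out: 0 without GFP-CCNB1IP1 replicate 3, Uhrf1 and Hells without GFP replicate 1, and Dnmt1 alone without GFP replicate 2. With a library left out, fold changes changed sign for 5 genes, whose ranges were -0.032 to 0.099 for Tet2, -0.004 to 0.068 for Mbd2, -0.165 to 0.090 for Trdmt1, -0.069 to 0.013 for Cxxc5 and -0.248 to 0.089 for Sycp1; the cause was not tested. Libraries with the same replicate number did not deviate together (correlations across genes of 0.023, -0.009 and -0.011). No pairing was seen, but a small shared effect, or one on few genes, cannot be seen this way. With the block Uhrf1 had an unadjusted p = 0.0373 and none of the 9 passed (limma). Depth limits Tet1 and Dnmt3b most.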

Other observations

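Genes that protect methylation at imprinted loci were well expressed, chosen here after their values were seen. Zfp57, a zinc finger gene best known from oocytes and early embryos, had 24.5, 24.0 and 23.6 FPKM in the GFP-CCNB1IP1 libraries and 20.0, 24.2 and 22.5 FPKM in the GFP libraries. Its corepressor gene Trim28 had 96.7 to 114.0 FPKM in the GFP-CCNB1IP1 libraries and 98.6 to 119.0 FPKM in the GFP libraries, and Zfp445 had 30.8 to 31.6 and 29.1 to 33.4 FPKM. None of these 3 passed (limma, adjusted p = 0.622, 0.913 and 0.999). Of 5 pluripotency markers, Lin28a had 13.3 to 14.7 FPKM in the GFP-CCNB1IP1 libraries and 13.6 to 15.7 FPKM in the GFP libraries, while Pou5f1, Dppa5a and Tdgf1 were at 0 in every library and Nanog was at 0.160 FPKM or less.

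Summed immune markers reached 3.67 FPKM in 1 library, GFP-CCNB1IP1 replicate 2, where Csf1r had 2.05 and Cd68 1.47 FPKM. The GFP-CCNB1IP1 libraries started at 0.411 and the GFP libraries ran from 0.423 to 0.760 FPKM for the same 5 markers.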
